A study of Arabidopsis thaliana with 2 samples.

Results

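The 3 enzyme families examined here modify small molecules and were read in stems of Arabidopsis thaliana. They are the UDP-sugar glycosyltransferases (UGT), the cytochromes P450 (CYP) and the soluble glutathione transferases (GST). The members were all probe sets that the platform annotation gives to a single gene whose symbol begins with UGT and a digit, with CYP, digits, a letter and a digit, or with GSTU, GSTF, GSTZ or GSTL and a digit. UGT75C1, UGT78D1 and UGT78D2, which act on anthocyanins and flavonols, were left out by this rule. It gave 81 of the 13356 genes that a probe set names alone, 45 UGT, 23 P450 and 13 GST genes, each read by 1 probe set. The rule reads symbols and not measured values, but it was set with earlier results of these data known. Genes of these families that the annotation lists under another name or only by a locus code are not members.

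The study compared 1 stem sample of plants overexpressing AtC3H14 from the 35S promoter (35S::AtC3H14) with 1 of wild-type plants. The 35S promoter, from a plant virus, drives strong expression in nearly all plant tissues, and AtC3H14 encodes a CCCH zinc finger protein. Both samples were Columbia (Col-0) plants, 30 days old, grown on soil at 23 °C in days of 16 h light and 8 h dark. The stem was taken from the base up to the third internode, and 10 ug of total RNA was labelled for each Affymetrix ATH1 array. A probe set on such an array is a group of short probes for the same transcript. The labels do not say how many plants or transgenic lines went into a sample. With 1 array per genotype there is no replicate error and no test, and a difference between genotypes cannot be told apart from one between plants, harvests or arrays.

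UGT enzymes move a sugar, most often glucose, from a UDP-sugar onto hormones, phenolic compounds and foreign chemicals, which makes them more soluble and often inactive. P450 enzymes are haem proteins that insert oxygen into their substrates and act in lignin, hormone and defence compound synthesis. GST enzymes join glutathione to reactive compounds or carry and reduce such compounds, and the tau (GSTU) and phi (GSTF) classes are the large plant-specific ones. In all of these families many genes lie side by side as copies of each other.

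The values were MAS5 signals, in arbitrary intensity units on a linear scale. A signal of 104, the 40th percentile over both arrays without control probe sets, served as a floor and marked what was treated as measured. Where both signals of a gene were under the floor no ratio was given, and where only 1 was, the ratio was taken against the floor and is a bound. Signals of different probe sets were not ranked against each other, because probes differ in how strongly they respond. The transgene was seen at the AtC3H14 probe set, with a signal of 8655 in 35S::AtC3H14 against 244 in wild type. In bulk stem RNA, fewer cells that use a gene and less RNA per cell cannot be told apart. Of 13 marker genes of stem and other tissues, 9 had a probe set naming them alone and 8 were measured. The 3 photosynthetic and 3 secondary wall markers among them were above the floor on both arrays, with ratios between 0.724 for HCT and 1.07 for PRK. The anther marker A9 was below the floor on both arrays. PYK10, a root and seedling beta-glucosidase, had signals of 56.4 in 35S::AtC3H14 and 614 in wild type, and WSD1, an epidermal wax ester synthase, 466 and 11.3. The part of these marker differences in the results below was not tested.

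Most family members were not measured in the stem. Of the 81 genes, 46 (56.8%) lay below the floor on both arrays, compared with 42.2% of the 13513 probe sets that name 1 gene and 36.3% of all 22665 other probe sets. The share below the floor was 62.2% for UGT genes (28 of 45), 52.2% for P450 genes (12 of 23) and 46.2% for GST genes (6 of 13). All P450 and GST genes kept the same side of the floor in both genotypes. Among UGT genes 2 reached the floor only in 35S::AtC3H14 and 2 only in wild type, so that 15 reached it on each array.

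**Figure D1:**
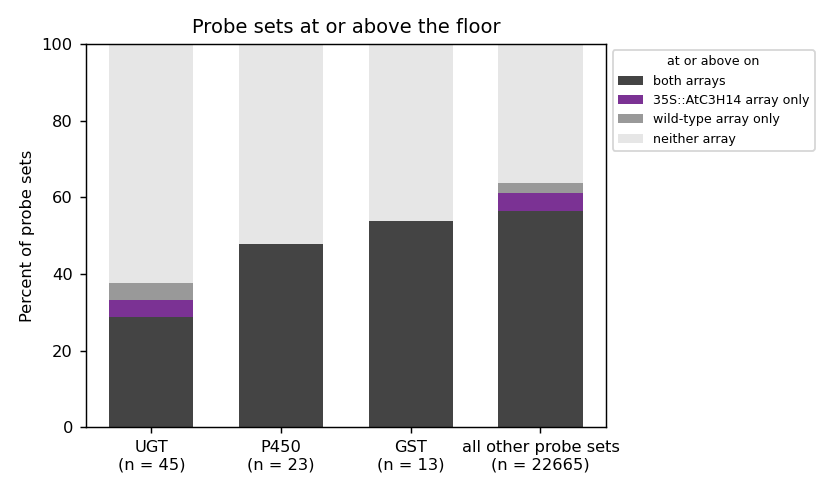
Stacked bars give the percent of probe sets that reached the floor on both arrays, on 1 array or on neither, for the 3 families and all other probe sets (number of probe sets under each bar). The segment below the floor on both arrays is 62.2% for UGT, 52.2% for P450 and 46.2% for GST genes, against 36.3% for all other probe sets.

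Of the 35 measured members, 1 was at least 2-fold higher in 35S::AtC3H14 (CYP71B34) and 1 at least 2-fold lower (UGT71C5), together 5.71%. Over all 14469 measured probe sets the share past 2-fold was 5.27% upward and 5.78% downward, 11.1% in all. The split of 1 higher and 1 lower depended on the scaling of the arrays. It was 1 and 2, together 8.57% of 35 members, when each array was centred on its median. It was 0 and 10, together 29.4% of 34 members, when the arrays were scaled to 18 probe sets for spiked hybridization controls. These controls were 1.44-fold higher on the 35S::AtC3H14 array on average. Over all measured probe sets the calls also moved toward lower. Median centring gave 613 higher and 1041 lower, 11.4% of 14452. The hybridization-control scaling gave 257 higher and 2285 lower, 18.3% of 13862. Fold differences are therefore given relative to the average of each array, as deposited. Probe sets of the same gene on these arrays differed with an SD of 0.35 in log2 ratio (121 probe sets of 59 genes), which covers neither plants nor arrays.

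**Figure D2:**
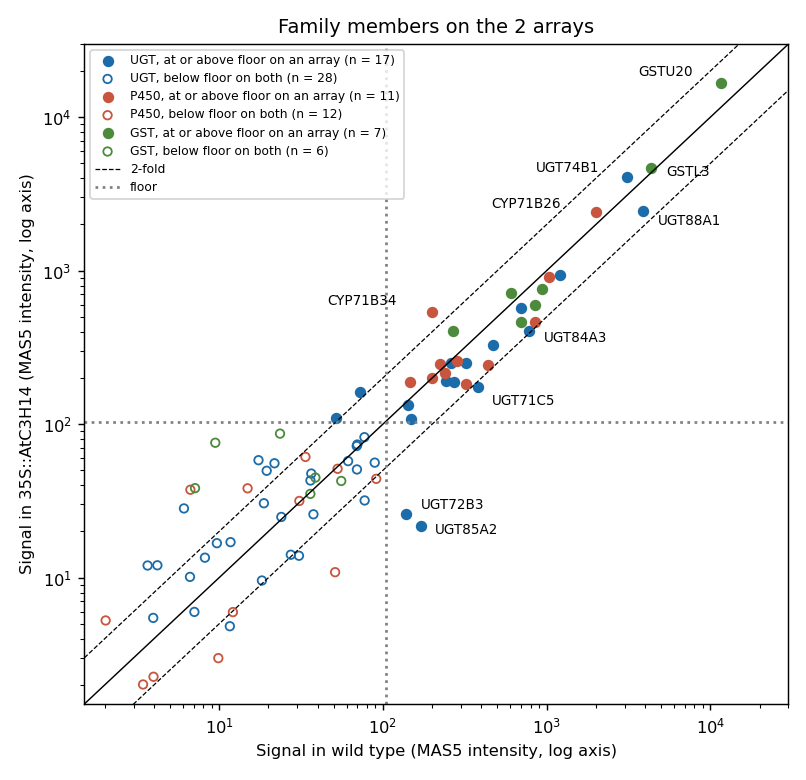
Each point is 1 of the 81 family members, with its signal in wild type on the horizontal and in 35S::AtC3H14 on the vertical axis (both log axes). Filled points reach the floor of 104 (dotted) on at least 1 array, open points on neither. CYP71B34 and UGT71C5 are the filled points outside the dashed 2-fold lines with both signals above the floor. By raw signal UGT85A4, UGT85A7, UGT72B3 and UGT85A2 also lie outside these lines. These genes have a signal below the floor on 1 array and carry bounds under 2-fold.

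The measured UGT genes lay mostly below wild type by small amounts. Of 13 UGT genes above the floor on both arrays, 12 had a lower signal in 35S::AtC3H14 and 1, UGT74B1, a higher one. The share of lower signals was 46.7% among all 12826 probe sets above the floor on both arrays. The median log2 ratio of the 17 measured UGT genes, with bounds entered as such, was -0.37, and that of all measured probe sets 0.05. Their log2 ratios above the floor ran from -1.13 to 0.40 with an SD of 0.39, against an SD of 0.64 for all probe sets. UGT78D2 and UGT78D1, outside the membership rule, had ratios of 1.22 and 1.09, and with them 12 of 15 UGT genes were lower and 3 higher.

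The UGT member past 2-fold was UGT71C5 (AT1G07240), which glucosylates abscisic acid to its inactive storage ester. It had a signal of 174 in 35S::AtC3H14 against 380 in wild type. This was 2.18-fold lower, a log2 ratio of -1.13. Raising the floor to the 60th percentile, a signal of 308, left it a bound of -0.30. UGT71B6, another abscisic acid glucosyltransferase, was below the floor on both arrays, at 58.3 in 35S::AtC3H14 and 17.4 in wild type. UGT74D1, which glucosylates auxins, had signals of 188 in 35S::AtC3H14 and 272 in wild type, 1.45-fold lower. UGT76C1, a cytokinin N-glucosyltransferase, stood at 251 in 35S::AtC3H14 and 260 in wild type, so its signal was nearly the same in both. The second cytokinin enzyme, UGT76C2, was below the floor, with 82.3 in 35S::AtC3H14 and 77.2 in wild type. UGT84B1 (indole-3-acetic acid), UGT74F1 and UGT76B1 (salicylic acid among their substrates) were also below it on both arrays.

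UGT84A1, UGT84A3, UGT84A4, UGT72E1, UGT72E2 and UGT72E3 are 6 UGT members known for acting on phenylpropanoids. This choice was not fixed beforehand and may be incomplete. Of these 6, 2 were measured and neither passed 2-fold, where 11.1% of all 14469 measured probe sets did. UGT84A3, which forms glucose esters of cinnamic acids, had signals of 406 in 35S::AtC3H14 and 780 in wild type, 1.92-fold lower. Its log2 ratio of -0.94 lay just inside the 2-fold limit, and it passed that limit at -1.05 with median centring and at -1.46 with the hybridization-control scaling. Its relatives UGT84A1 and UGT84A4 were below the floor on both arrays. UGT72E2, a glucosyltransferase of the lignin precursors coniferyl and sinapyl alcohol, stood at 108 in 35S::AtC3H14 and 148 in wild type, both close to the floor. UGT72E1 and UGT72E3, which act on the same class of precursors, were below it. UGT72B3 had a signal of 25.9 in 35S::AtC3H14 and 139 in wild type, which gives a bound of at least 1.34-fold lower. Among the secondary wall markers, HCT had a ratio of 0.724, IRX15 of 0.730 and IRX10 of 0.988, and their part in the lower UGT signals was not tested.

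UGT74B1, the S-glucosyltransferase of glucosinolate core synthesis, was the UGT gene above the floor on both arrays with a higher signal. It had 4064 in 35S::AtC3H14 and 3077 in wild type, 1.32-fold higher. Its log2 ratio of 0.40 is smaller than the 0.52 that the hybridization-control scaling takes from every gene; in that scaling all 11 UGT genes above the floor on both arrays were below wild type, as were 81.8% of all such probe sets. UGT88A1 had 2465 in 35S::AtC3H14 and 3892 in wild type, 1.58-fold lower. UGT71C4 had 938 in 35S::AtC3H14 and 1215 in wild type, 1.30-fold lower.

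The other measured UGT genes differed by less than 1.5-fold where both signals were above the floor. UGT87A2, which affects flowering time, had 328 in 35S::AtC3H14 and 469 in wild type, 1.43-fold lower. UGT80B1, a sterol glucosyltransferase, had 250 in 35S::AtC3H14 and 324 in wild type, 1.30-fold lower. UGT73B1 had 192 in 35S::AtC3H14 and 244 in wild type. These ratios lay within a narrow band below 1. UGT71B1 stood at 570 in 35S::AtC3H14 and 693 in wild type, and UGT71C1 at 133 and 142. The UGT85A genes held 3 of the 4 bounds. UGT85A2 had a signal of 21.6 in 35S::AtC3H14 and 170 in wild type, at least 1.63-fold lower. UGT85A4 went the other way, with 161 in 35S::AtC3H14 and 72.9 in wild type, at least 1.55-fold higher. UGT85A7 had 110 in 35S::AtC3H14 and 51.4 in wild type, a bound of 1.06-fold that says little about its size. The 28 UGT genes below the floor had signals from 4.83 to 82.3 in 35S::AtC3H14 and from 3.66 to 89.2 in wild type.

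**Figure D3:**
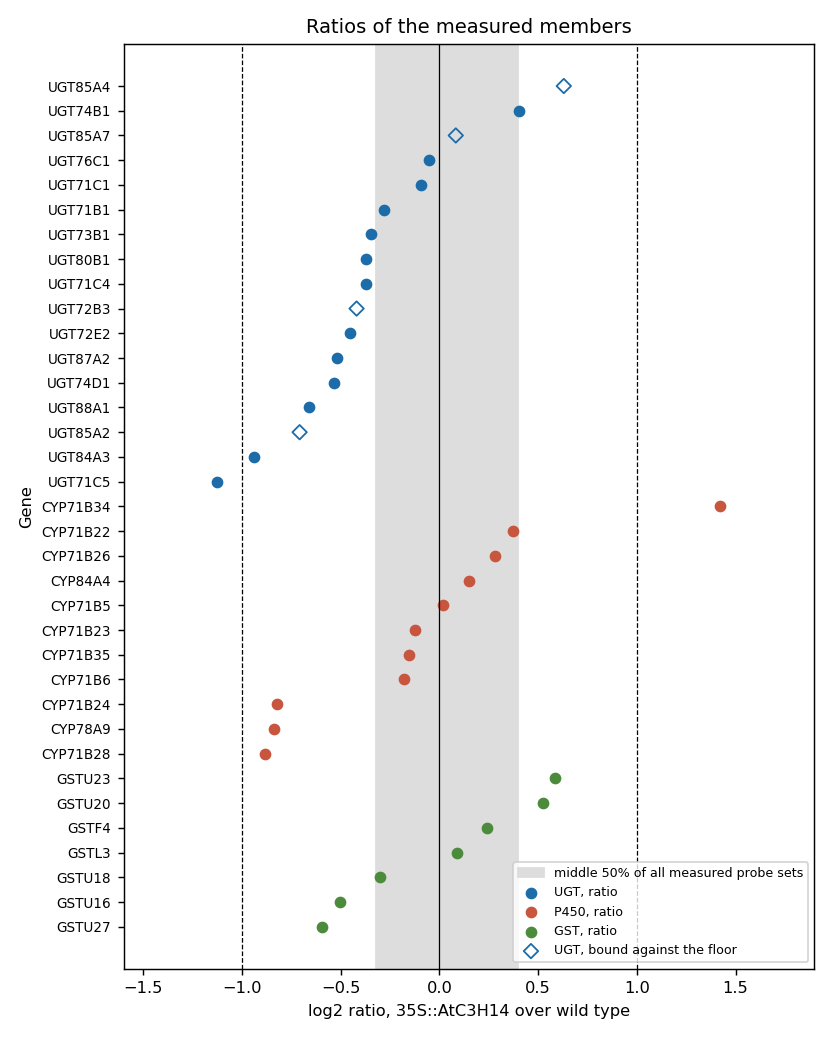
Log2 ratios of 35S::AtC3H14 over wild type for the 35 measured members, sorted within each family. Filled points are ratios, open diamonds bounds, dashed lines mark 2-fold and the grey band the middle 50% of all 14469 measured probe sets. UGT points lie mostly left of 0, P450 and GST points on both sides, and CYP71B34 at 1.42 and UGT71C5 at -1.13 lie past 2-fold.

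The P450 genes lay on both sides of wild type as deposited, with 1 past 2-fold. Of 23 P450 genes 19 belong to the CYP71B subfamily, a large group in the mustard family whose members mostly have no assigned reaction. All 11 measured P450 genes were above the floor on both arrays, 5 higher and 6 lower in 35S::AtC3H14. With median centring, quantile normalization and loess 7 of the 11 were lower. Among all probe sets above the floor on both arrays, the share of lower signals was 54.8%, 48.2% and 49.5% in these, and 46.7% as deposited. With the hybridization-control scaling 10 of the 11 P450 genes were lower, against 81.8% of all such probe sets. The median log2 ratio of the 11 P450 genes as deposited was -0.13. The SD was 0.67, close to the 0.64 of all probe sets and wider than the 0.39 of the UGT genes. CYP71B34 at 1.42 enlarges this SD, since the log2 ratios of the other measured P450 genes ran from -0.88 to 0.37.

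CYP71B34 (AT3G26300) was the highest member of the 3 families by ratio. It had a signal of 534 in 35S::AtC3H14 against 200 in wild type, 2.68-fold higher, a log2 ratio of 1.42. The log2 ratio was 0.79 when the floor was raised to the 60th percentile and 0.90 with the hybridization-control scaling, the first a lower bound, since the wild-type signal was then below the floor, and the second under 2-fold. CYP71B22 had 188 in 35S::AtC3H14 and 146 in wild type, 1.29-fold higher. CYP71B26 had 2416 in 35S::AtC3H14 and 1990 in wild type, 1.21-fold higher. CYP84A4, an enzyme of alpha-pyrone (arabidopyrone) synthesis, stood at 248 in 35S::AtC3H14 and 224 in wild type, and CYP71B5 at 201 and 199, so both differed by little.

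A group of 3 P450 genes was lower by slightly less than 2-fold. CYP71B28 had 463 in 35S::AtC3H14 and 854 in wild type, 1.84-fold lower. CYP78A9, whose family promotes growth of fruits, seeds and other organs, had 244 in 35S::AtC3H14 and 436 in wild type, 1.79-fold lower. CYP71B24 had 181 in 35S::AtC3H14 and 321 in wild type, 1.77-fold lower. All of them passed 2-fold lower with the hybridization-control scaling, which lowers every gene alike, and not as deposited. CYP71B6, which acts on indole compounds of pathogen defence, differed little, with 913 in 35S::AtC3H14 and 1034 in wild type. CYP71B23 had 259 in 35S::AtC3H14 and 282 in wild type, and CYP71B35 had 216 and 240. CYP79A2, the first enzyme of benzyl glucosinolate synthesis, and CYP51G2, a relative of the sterol demethylase, were below the floor on both arrays.

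None of the 7 measured GST genes differed by 2-fold, where 11.1% of all 14469 measured probe sets did. With so few genes, a count of 0 is close to that share. All 7 were above the floor on both arrays, 4 higher and 3 lower in 35S::AtC3H14. Of all probe sets above the floor on both arrays, 46.7% were lower. The median log2 ratio of the 7 GST genes was 0.09, with a range from -0.60 to 0.59. With median centring 4 of the 7 were lower, against 54.8% of all such probe sets, and the GST median was -0.02. With the hybridization-control scaling 5 were lower, as were 81.8% of all probe sets above the floor on both arrays. GSTU20 (AT1G78370), a tau-class enzyme that binds the jasmonate-conjugating enzyme of far-red light signalling, had 16768 in 35S::AtC3H14 and 11666 in wild type, 1.44-fold higher. GSTU23 had 404 in 35S::AtC3H14 and 269 in wild type, a log2 ratio of 0.59. The phi-class GSTF4 had 714 in 35S::AtC3H14 and 604 in wild type. The hybridization-control scaling lowers each of these log2 ratios by the same 0.52, and the GST median then stood at 0.01 relative to that of all probe sets. GSTL3, of the lambda class, whose members reduce rather than conjugate, was close to unchanged in signal, with 4647 in 35S::AtC3H14 and 4370 in wild type. GSTU27 had 462 in 35S::AtC3H14 and 698 in wild type, 1.51-fold lower, and GSTU16 had 596 and 845, 1.42-fold lower. GSTU18 stood at 763 in 35S::AtC3H14 and 939 in wild type. The tau class thus held both the highest and the lowest ratios of the family. GSTU15, GSTU21, GSTU22, GSTU25, GSTU26 and GSTU28 were below the floor on both arrays, among them GSTU25, known for detoxifying the explosive TNT, with 35.1 in 35S::AtC3H14 and 36.1 in wild type. No GSTZ gene met the membership rule.

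Copies lying next to each other could differ in ratio. In the TAIR10.1 gene table, used for gene order only, 51 of the 81 members lay in 18 runs in which each member was at most 3 places from the previous one. CYP71B34 lies next to CYP71B35, with a log2 ratio of 1.42 for the first and -0.16 for the second. In the same run CYP71B26 had 0.28, and CYP71B25, CYP71B36 and CYP71B37 were below the floor on both arrays. In the nearby run of CYP71B21 to CYP71B24, the log2 ratios of the 3 measured genes ran from -0.83 to 0.37. In the UGT71C run, UGT71C5 had a log2 ratio of -1.13 and its neighbour UGT71C4 of -0.37, while UGT71C3 was below the floor at 73.7 in 35S::AtC3H14 and 69.8 in wild type. In the GSTU run the measured genes at both ends, GSTU23 and GSTU20, had similar log2 ratios of 0.59 and 0.52, and GSTU22 and GSTU21 between them were below the floor. None of the 81 probe sets carries an ID ending that marks probes shared between transcripts, but close copies can still add to each other's signal.

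**Figure D4:**
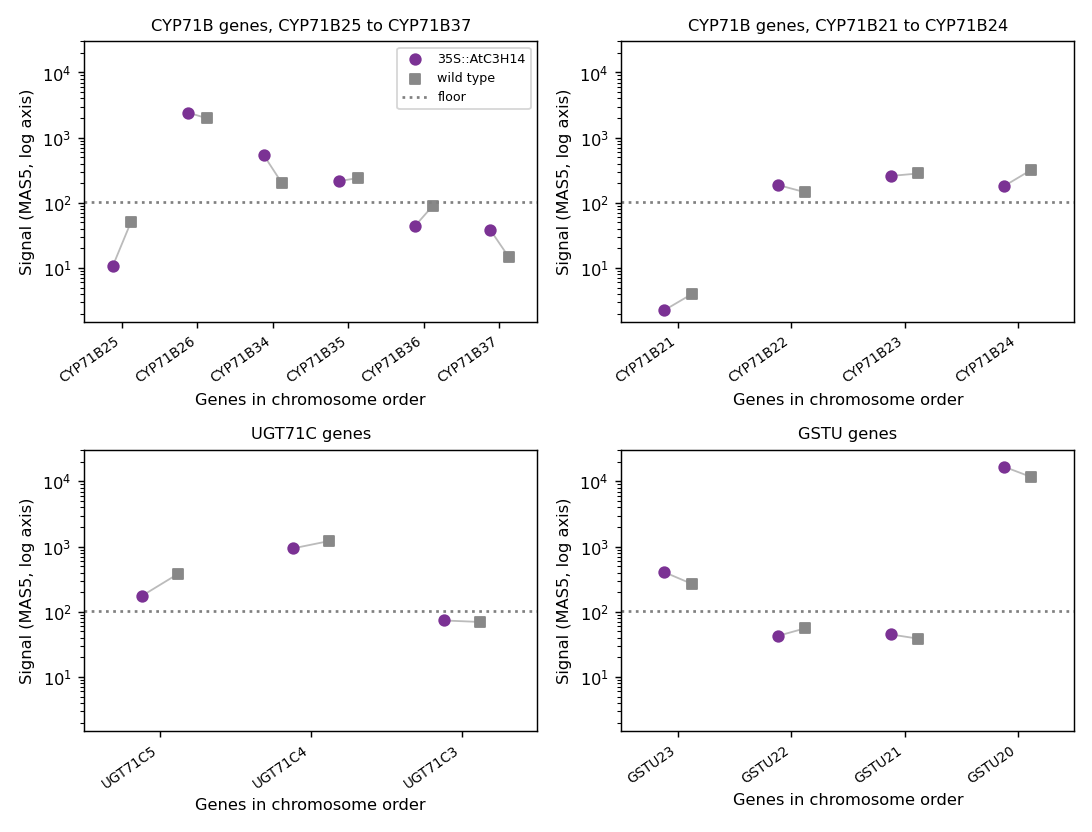
Signals in 35S::AtC3H14 (circles, left) and wild type (squares, right) for 4 runs of neighbouring genes in chromosome order, on a log axis with the floor of 104 dotted. CYP71B34 is higher in 35S::AtC3H14 (534 against 200) while its neighbour CYP71B35 is not (216 against 240), and GSTU23 and GSTU20 flank GSTU22 and GSTU21, which lie below the floor.

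Set side by side, the families differed in where their medians lay, at -0.37 for UGT, -0.13 for P450 and 0.09 for GST genes in log2 ratio. This is a description of 2 arrays, and no test of the difference was possible. Relative to the median of all measured probe sets, they stood at -0.43 for UGT, -0.18 for P450 and 0.03 for GST genes. Of the 11 measured P450 genes 9 were CYP71B genes, so the P450 median is mainly that of the CYP71B subfamily. The order of the families was the same with median centring, quantile normalization, loess and the hybridization-control scaling. The hybridization-control scaling moved the median of all probe sets to -0.44, and relative to it the UGT, P450 and GST medians were -0.39, -0.20 and 0.01. When no floor was set, so that the 28 dim UGT genes entered as ratios, the UGT median was -0.09 and the P450 median -0.13, and 24 of 45 UGT genes were lower. The low UGT median thus describes the genes above the floor and not the family as a whole.

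**Figure D5:**
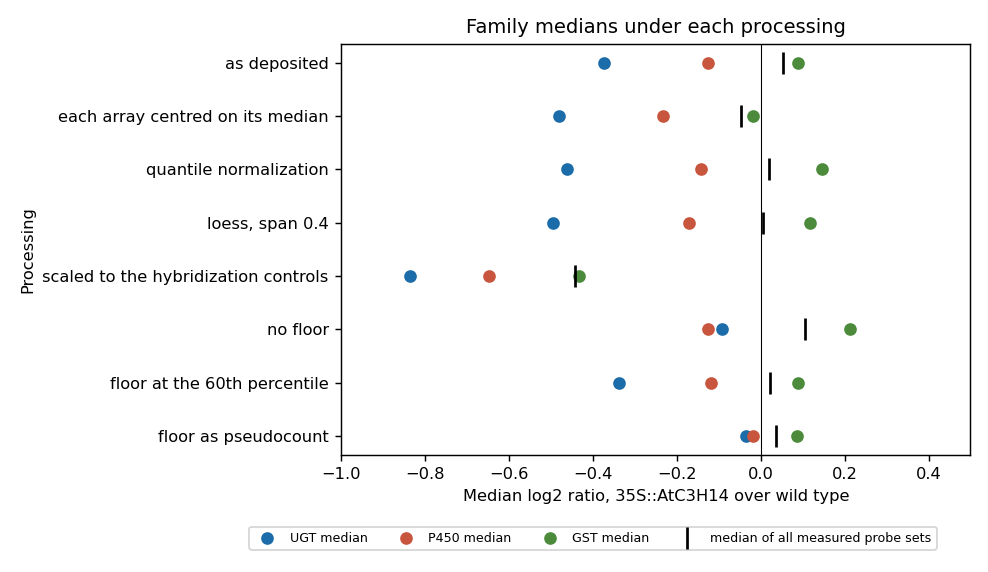
Median log2 ratio of 35S::AtC3H14 over wild type for the measured UGT, P450 and GST genes (points) and for all measured probe sets (black ticks) under each processing. As deposited the medians are -0.37, -0.13 and 0.09. With the hybridization-control scaling all medians shift downward together, and with no floor or with the floor as a pseudocount the UGT median lies near the P450 median.

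Genes that work with these families were mostly not analysed here. The 25 partner genes covered P450 reductases, glutathione synthesis and reduction, conjugate transport, other GST classes and xenobiotic response. Of them 3 had a probe set naming them alone and 2 were measured. Neither of these 2 differed by 2-fold, where 11.1% of all 14469 measured probe sets did. GR1, the cytosolic glutathione reductase that regenerates reduced glutathione, had 4038 in 35S::AtC3H14 and 2427 in wild type, 1.66-fold higher. The plastid and mitochondrial form GR2 had 1426 in 35S::AtC3H14 and 1542 in wild type. The multidrug transporter gene DTX1 was below the floor on both arrays.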

How the data were processed

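The deposited values are linear intensity values per probe set, and the submitters' processing notes name MAS5 as the tool. Its version and a genome build are not given in the sources used here. Both arrays had a 2% trimmed mean of 500.04, so a shift of all transcripts cannot be seen. The 64 control probe sets were set apart. Of the other 22746, 13513 named 1 gene, 503 several and 8730 are unnamed here. All 81 members matched the TAIR10.1 gene table under the same symbol. All ratios set 35S::AtC3H14 over wild type, with the floor, bounds and 2-fold size described above. With 1 array per genotype, no test was run, and the number of arrays limits precision. The members, gene lists, size rule and alternatives were chosen with earlier results of these data known. Every member reaching the floor on an array could be named. Alternatives changed the array scaling (median, quantile, loess with a span of 0.4, hybridization controls), the floor, the fold, the probe sets and the source of symbols. The calling step was tested on simulated data, with changes larger than 2-fold in probe sets well above the floor. That check does not cover calls near 2-fold or near the floor. Python 3.11.15, numpy 2.4.6, pandas 2.3.3 and statsmodels 0.14.6 were used.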

Additional observations from a re-analysis of the deposited data

How the results depend on the processing

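Counts and medians stayed within 1.5 times or within 0.35 in log2 ratio under quantile normalization and loess. Leaving out probe sets with shared probes could change nothing, since 0 members have one. Median centring gave 2 of 17 UGT genes at least 2-fold lower, against 7.20% of 14452 probe sets. The hybridization-control scaling gave 5 UGT, 3 P450 and 2 GST genes lower, 0 P450 genes higher, and medians of -0.84, -0.65 and -0.43 for UGT, P450 and GST genes; over all probe sets 2285 of 13862 were then lower and 257 higher. With no floor there were 8 higher and 6 lower UGT genes, 4 higher and 4 lower P450 genes and 3 higher GST genes, together 30.9% of the members against 25.7% of all probe sets (3428 higher, 2409 lower). In that setting, and with the floor as a pseudocount, 24 of 45 UGT genes were below wild type, against 43.7% of all probe sets. With the pseudocount UGT85A2 replaced UGT71C5, at -0.80, as the UGT gene past 2-fold lower. There 2 of 81 members (2.47%) passed 2-fold in either direction, against 4.85% of all 22746 probe sets. Raising the floor to a signal of 308 left 8 UGT and 6 P450 genes measured, and 0 of these passed 2-fold. Of all 9986 probe sets still measured, 8.99% did, and a count of 0 in so few genes is close to that share. Among UGT genes above this higher floor on both arrays, 5 of 6 were below wild type, against 48.4% of all such probe sets. At 3-fold 0 of 17 UGT and 0 of 11 P450 genes passed, against 3.29% of all 14469 measured probe sets. Gene table names, which add UGT72B1 and UGT79B1 among others, gave 3 of 20 measured UGT genes lower, against 5.78% of all measured probe sets. The count of UGT genes below wild type was followed after its value had been seen. No paired analysis was possible because there is 1 array per genotype, and for the same reason no array could be left out. Low signal limits the reading of the 46 members under the floor.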

Other observations

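Probe sets of these families outside the membership rule included some of the clearer differences. GT72B1 (AT4G01070), which the gene table also calls UGT72B1, glucosylates lignin precursors and chlorinated pollutants. Its signal was 3463 in 35S::AtC3H14 and 7651 in wild type, 2.21-fold lower. Both signals were far above the floor. UF3GT (UGT79B1), an anthocyanin glycosyltransferase, had 273 in 35S::AtC3H14 and 711 in wild type, 2.61-fold lower. SGT (UGT80A2), a sterol glucosyltransferase like UGT80B1, had 483 in 35S::AtC3H14 and 675 in wild type, 1.40-fold lower. With these genes and with UGT78D1 and UGT78D2, 15 of 18 UGT genes above the floor on both arrays were below wild type, against 46.7% of all probe sets. These genes were found through the gene table, and their values had been seen before they were chosen.

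Probe sets naming several genes cannot be given to 1 of them. The probe set of CYP71B19 and CYP71B20, which belong to the same subfamily as CYP71B34, had 822 in 35S::AtC3H14 and 1742 in wild type, 2.12-fold lower. The probe set of UGT73B2 and UGT73B3 had 8.14 in 35S::AtC3H14 and 202 in wild type, at least 1.94-fold lower. The probe set of UGT89B1 and AT1G73885 had 545 in 35S::AtC3H14 and 790 in wild type, 1.45-fold lower, and that of UGT71D1 and AT2G29710 had 851 and 869.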
